A study of Homo sapiens with 4 samples.

Results

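The S100 genes encode small calcium-binding proteins, and 10 of them were followed here in PC9 lung adenocarcinoma cells and in osimertinib-resistant PC9OR cells. The members, S100A2, S100A3, S100A4, S100A6, S100A10, S100A11, S100A13, S100A14, S100A16 and S100P, were taken by symbol from the gene identifiers of the deposited tables. They are 10 of the 16813 genes with a count in any library. PC9 is a human line known for an activating deletion in EGFR, although the labels enter the genotype of all 4 libraries as WT. Osimertinib is an EGFR inhibitor, and PC9OR is a single resistant line derived from PC9, so its values describe that line and not resistance at large. Both lines were grown in RPMI 1640 with fetal bovine serum, and no drug treatment before RNA extraction is given in the sources used here. Each line has 2 libraries that the labels call biological replicates, phenotype control for PC9 and osimertinib resistant for PC9OR. Nothing says that they came from separate cultures, so the p-values measure only the spread between these libraries.

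S100 proteins carry a pair of EF-hand motifs, the helix-loop-helix fold that holds a calcium ion, and most work as dimers. Calcium binding exposes a surface that grips partner proteins such as annexins, myosin heavy chains and ezrin, and some members are also released from the cell and bind the receptors AGER (RAGE) and TLR4. Most S100 genes lie in one cluster on the long arm of chromosome 1, next to the genes of the epidermal barrier, and S100P lies on chromosome 4.

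Of the 10 members, 4 rose in PC9OR, none fell, and 6 did not pass the test. The members were chosen with earlier results of these data known. S100A8 and S100A9, which are not among them, were lower in PC9OR, as described below. S100A4 rose 11.2-fold, S100A6 3.02-fold, S100A14 2.62-fold and S100A13 2.31-fold. All 10 genes passed the filter on low counts and entered edgeR's quasi-likelihood test. A call needed a Benjamini-Hochberg adjusted p under 0.05 over the 13148 genes tested. By the same rule 15.6% of all tested genes were higher and 20.8% were lower. The 4 members were also more than 2-fold higher, a size of call that 6.13% of all tested genes reached. At an unadjusted p under 0.05 the members again gave 4 higher and 0 lower, beside 3137 and 3516 of all 13148 tested genes. DESeq2's Wald test gave the same 2 member counts, beside 3015 higher and 3415 lower genes. In the fit with length offsets described below, 4 members were higher and 1, S100P, was lower at this threshold. All tested genes gave 3568 and 2990 there.

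The libraries held between 23201307 and 32203998 expected counts, and a count of 3 was taken as the smallest that this depth can show. Transcript length touches every S100 value. The members are 510 to 1209 bases long in the deposited tables, against a median of 2989 bases over all tested genes. Over the tested genes, the log2 difference between PC9 replicate 2 and replicate 1 fell with length (rank correlation -0.38 across genes), as did that between PC9OR and PC9 (-0.34), while the difference between the PC9OR libraries did not (-0.01). The 1151 other tested genes of the members' length range had a median log2 fold change of 0.48, while the median of all tested genes was 0.01, and 26.2% of the former were called higher. Each member is therefore set beside the 200 genes closest to it in length and beside a second fit that removes a smooth length curve from each library. In that second fit 20.0% of all tested genes were higher and 18.4% were lower. Epithelial markers matched the label in part. KRT7, KRT8, KRT18, KRT19, EPCAM and CDH1 were all above 1 FPKM in every library, whereas NKX2-1, NAPSA and SFTPB, markers of the lung alveolar lineage, were at or near 0.

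The sequences upstream of the genes are shown first, because neighbouring S100 genes differed widely in their change. They are the promoter windows of S100A6, S100A5, S100A4 and S100A3, which follow each other on chromosome 1, and of S100P from chromosome 4. Each runs 5′ to 3′ from 250 bases before to 50 bases after a RefSeq gene start on build GRCh38.p14. The windows are chr1:153535942-153536241 for S100A6, chr1:153540885-153541184 for S100A5 (the second start listed), chr1:153545757-153546056 for S100A4 and chr1:153549209-153549508 for S100A3, all on the minus strand, and chr4:6693628-6693927 for S100P on the plus strand. Capitals mark TATAAA, the core of a TATA box, and TGANTCA, where N is any base, a pattern that includes the letters that AP-1 factors bind.
S100A6: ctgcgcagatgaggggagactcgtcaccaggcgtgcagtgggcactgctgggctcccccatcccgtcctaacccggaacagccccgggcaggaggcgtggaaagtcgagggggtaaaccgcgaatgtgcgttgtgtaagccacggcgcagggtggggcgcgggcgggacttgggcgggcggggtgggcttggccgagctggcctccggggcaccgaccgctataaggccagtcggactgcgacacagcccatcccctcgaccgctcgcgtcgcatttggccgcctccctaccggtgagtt
S100A5: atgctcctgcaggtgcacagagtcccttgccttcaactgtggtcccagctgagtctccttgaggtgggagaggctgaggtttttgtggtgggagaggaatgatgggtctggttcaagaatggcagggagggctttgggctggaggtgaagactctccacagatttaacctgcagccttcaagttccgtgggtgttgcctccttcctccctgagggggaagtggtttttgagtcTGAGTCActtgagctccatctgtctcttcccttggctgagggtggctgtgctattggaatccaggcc
S100A4: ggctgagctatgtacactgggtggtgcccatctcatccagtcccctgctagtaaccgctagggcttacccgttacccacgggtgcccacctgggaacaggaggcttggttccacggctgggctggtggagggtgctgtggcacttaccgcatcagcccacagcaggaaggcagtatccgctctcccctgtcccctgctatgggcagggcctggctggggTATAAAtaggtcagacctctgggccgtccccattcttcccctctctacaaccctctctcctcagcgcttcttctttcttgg
S100A3: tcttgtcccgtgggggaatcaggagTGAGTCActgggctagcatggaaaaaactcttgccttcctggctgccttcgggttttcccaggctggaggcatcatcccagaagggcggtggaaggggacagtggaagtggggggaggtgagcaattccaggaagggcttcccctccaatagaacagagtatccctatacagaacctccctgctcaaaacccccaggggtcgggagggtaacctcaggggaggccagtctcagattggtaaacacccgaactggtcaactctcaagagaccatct
S100P: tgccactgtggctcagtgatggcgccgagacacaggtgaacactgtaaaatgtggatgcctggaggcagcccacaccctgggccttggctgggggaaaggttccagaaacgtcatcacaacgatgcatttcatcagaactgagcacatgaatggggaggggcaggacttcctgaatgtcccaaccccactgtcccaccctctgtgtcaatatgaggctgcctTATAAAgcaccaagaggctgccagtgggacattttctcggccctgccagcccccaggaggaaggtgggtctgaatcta

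The motifs were searched on both strands in the 14 RefSeq windows of the 10 members. TATAAA occurred in 1 window each of S100A4, S100P and S100A13, beginning 31, 28 and 29 bases before the start, and in 11.53% of all 35116 windows of the same length. It was thus present in 2 members that rose, S100A4 and S100A13, and in S100P, which was not called. Only the exact letters were searched, so close variants such as TATAAG in the S100A6 and S100A14 windows were not counted. TGANTCA occurred in windows of S100A3, 225 bases before the start, and S100A2, 52 bases before it, neither of which was called, and in 7.709% of all windows. S100A5, not a member but called higher, had it 17 bases before the start in the window printed above. Its other listed window had no match. The E-box letters CANNTG were in 10 of the 14 windows, against 68.68% of all, and the GC-box letters GGGCGG in 6 of the 14, against 44.95% of all. A match is a description of these letters and not a site of binding.

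S100A4, also called metastasin, binds the heavy chain of non-muscle myosin and is known for its part in cell motility. Its level, in FPKM (fragments per kilobase of transcript, scaled by the authors to the size of the library), was 10.5 and 13.8 in the PC9 libraries and 127 and 147 in the PC9OR libraries. The groups did not overlap, and the lower PC9OR library was far above the higher PC9 library. The expected counts behind these levels were 134 and 218 in PC9 and 2172 and 2596 in PC9OR. The log2 fold change was 3.48 ± 0.20 (SE, 2 libraries a line), with a 95% interval of 2.98 to 3.99 and an adjusted p of 0.00303 by edgeR's quasi-likelihood test. The median log2 fold change of the 200 genes nearest in length was 0.74, and 99% of them lay below S100A4. With length offsets S100A4 was 7.24-fold higher (log2 2.86 ± 0.14 SE, edgeR adjusted p = 0.000535). Among all listed genes it stood at FPKM rank 5113 and 4097 in PC9 and at 445 and 379 in PC9OR.

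S100A6, or calcyclin, binds annexins and the ubiquitin-ligase adaptor CACYBP, and it was the most abundant S100 transcript per length in every library. It had 499 and 821 FPKM in PC9 and 1885 and 2101 FPKM in PC9OR. The groups did not overlap, but the PC9 libraries differed from each other by 0.73 on the log2 scale of CPM (counts scaled to library size), the widest gap between replicates of any member. The log2 fold change was 1.60 ± 0.26 (SE), with an edgeR adjusted p of 0.0135. The median of the 200 genes nearest in length was 0.61, and 91.5% of them lay below S100A6. With length offsets it was 2.15-fold higher with an edgeR adjusted p of 0.00463. Its FPKM rank moved from 84 and 66 in PC9 to 20 and 15 in PC9OR.

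S100A14, an S100 of epithelial cells that can act on AGER from outside, had 29.9 and 42.7 FPKM in PC9 and 92.3 and 96.1 FPKM in PC9OR. The groups did not overlap. Its log2 fold change was 1.39 ± 0.20 (SE; edgeR adjusted p = 0.0105), and 94.5% of the 200 genes nearest in length lay below it. The fit with length offsets gave 2.09-fold (edgeR adjusted p = 0.00433).

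S100A13 takes part in the release of FGF1 and IL1A, which leave the cell without a signal peptide. It had 63.1 and 84.1 FPKM in PC9 and 172 and 168 FPKM in PC9OR, again with no overlap. Its log2 fold change was 1.21 ± 0.17 (SE; edgeR adjusted p = 0.0101). The genes nearest in length had a median of 0.65, and 84.5% of them lay below S100A13, so it stood nearer to genes of its length than the other 3 called members. With length offsets the difference was 1.57-fold (edgeR adjusted p = 0.00815). S100A13 shares 24.19% of its exon bases with a long non-coding RNA on the same strand and 10.6% with S100A1 on the other strand. Of its main transcript, 47.17% lies in stretches of at least 50 bases identical to transcripts of these genes. Its counts are therefore uncertain, by an amount that this share of bases does not give. Its expected counts were not whole in any library, as was also true of S100A2 and S100A10, and S100A1 itself had at most 3 counts in a library.

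The other 6 members did not pass the test. S100A16, a widely expressed S100, was the second most abundant member per length in every PC9 and PC9OR library, with 213 and 245 FPKM in PC9 and 278 and 266 FPKM in PC9OR. Its groups did not overlap, with a log2 fold change of 0.27 ± 0.12 (SE; edgeR adjusted p = 0.141, 95% interval -0.05 to 0.58). S100A11, a partner of ANXA1 and ANXA2, had 133 and 97.4 FPKM in PC9 and 126 and 109 FPKM in PC9OR. Its groups overlapped, with a log2 fold change of 0.02 ± 0.18 (SE) and a 95% interval of -0.44 to 0.48. S100A10 does not bind calcium and forms a complex with ANXA2 at the plasma membrane. It had 90.5 and 62.7 FPKM in PC9 and 83.0 and 85.6 FPKM in PC9OR, and both PC9OR libraries lay between the PC9 libraries. Its log2 fold change was 0.16 ± 0.19 (SE; edgeR adjusted p = 0.533). Unlike most members, S100A10 and S100A11 were lower in PC9 replicate 2 than in replicate 1, with differences of -0.51 and -0.44 on the log2 scale of CPM. S100P, which binds ezrin and AGER, had 49.8 and 73.8 FPKM in PC9 and 75.9 and 77.6 FPKM in PC9OR. The PC9OR levels were close to that of PC9 replicate 2, and in CPM the groups overlapped (26.9 and 39.8 against 39.8 and 42.2). Its log2 fold change was 0.30 ± 0.21 (SE; edgeR adjusted p = 0.302). Single PC9 libraries decided some of these calls: without PC9 replicate 1 S100A10 was called higher at 0.43, and without PC9 replicate 2 S100A16 and S100P were, at 0.37 and 0.59.

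S100A2, which is abundant in the epidermis, and S100A3, an S100 of the hair cuticle, were the least abundant members. S100A2 had 3.98 and 4.36 FPKM in PC9 and 5.19 and 4.38 FPKM in PC9OR, a log2 fold change of 0.21 ± 0.23 (SE; edgeR adjusted p = 0.495). S100A3 had 1.63 and 1.87 FPKM in PC9 and 2.69 and 2.34 FPKM in PC9OR, a log2 fold change of 0.52 ± 0.33 (SE; edgeR adjusted p = 0.253). Its 33 and 47 counts in PC9 and 74 and 66 in PC9OR leave a 95% interval of -0.32 to 1.37 on the log2 scale.

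**Figure D1:**
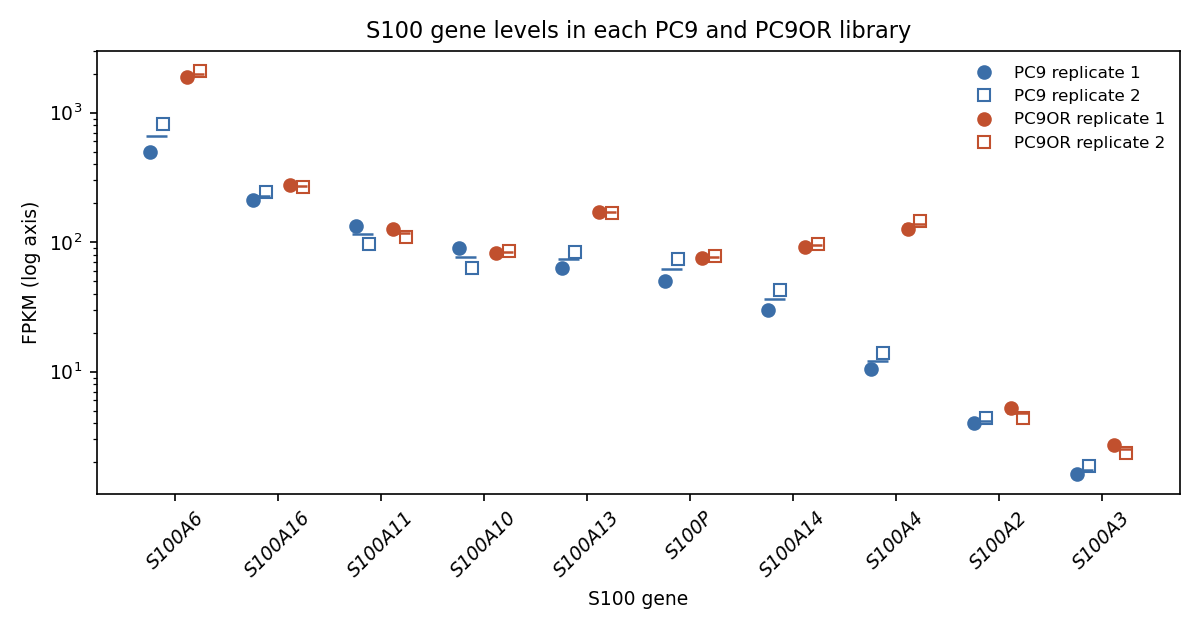
FPKM of the 10 S100 members on a log axis, ordered by their mean in PC9, with 1 point for each of the 4 libraries and a short line for the mean of each line. S100A4 moves from 12.2 FPKM (mean of 2) to 137 FPKM. S100A6, S100A13 and S100A14 also have both PC9OR points above both PC9 points by more than the gap between replicates. The same holds for S100A3, which was not called.

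In rank order by mean FPKM, the PC9 line ran S100A6 (660), S100A16 (229), S100A11 (115), S100A10 (76.6), S100A13 (73.6), S100P (61.8), S100A14 (36.3), S100A4 (12.2), S100A2 (4.17) and S100A3 (1.75). The levels of S100A10, S100A13 and S100P overlapped within PC9, so their order there does not go beyond the spread, and the others did not overlap with their neighbours. In PC9OR, S100A13 (170 FPKM), S100A4 (137) and S100A14 (94.2) stood above S100A10 (84.3) and S100P (76.8), while S100A6 (1993) and S100A16 (272) still led.

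All 10 log2 fold changes were above 0 in the fit without length offsets, with a median of 0.41, and 7 of the 10 had both PC9OR libraries above both PC9 libraries in CPM. That pattern held for 39.6% of all tested genes. Set beside genes of their length, 4 of the 10 lay above the median of their 200 nearest genes, and these were the 4 called members. S100A11 and S100P lay low among theirs, with 17.5% and 18.5% of the 200 genes below them. With length offsets the members' median was 0.01, 5 of the 10 values were above 0, and the same 4 members were called higher and none lower. The values of the 6 others then ran from -0.61 for S100A11 to 0.04 for S100A3. S100P was closest to a call among them, at -0.33 with an edgeR adjusted p of 0.0578. The sign of its value and of those of S100A2, S100A10, S100A11 and S100A16 thus turned with the length offsets. No direction was established for S100A2, S100A10, S100A11 or S100A16, whose intervals included 0 in both fits. The interval of S100P included 0 only without the offsets. With them the log2 difference between the PC9 libraries, taken as above, went from -0.51 to -0.77 for S100A10. For S100A11 it went from -0.44 to -0.90, and for every other member it narrowed. In bulk RNA, fewer cells with a transcript and less of it per cell cannot be told apart.

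**Figure D2:**
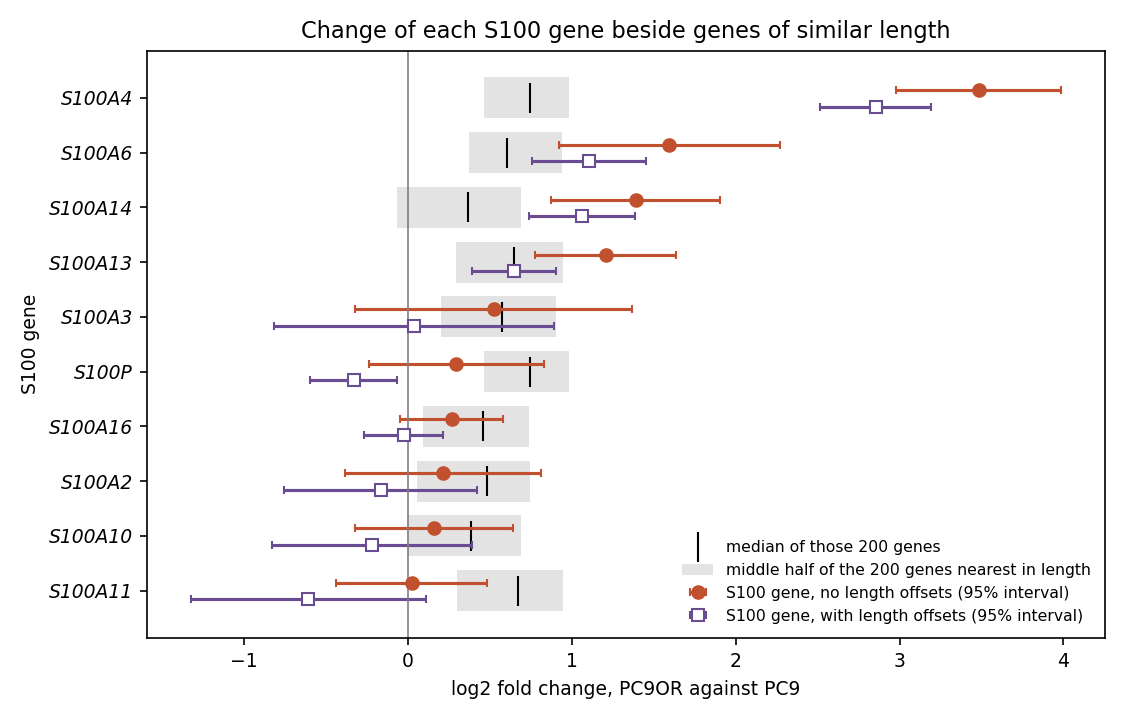
Log2 fold change of each S100 member in PC9OR against PC9 with its 95% interval, without (filled circles) and with (open squares) length offsets. Grey bars and ticks give the interquartile range and the median of the 200 tested genes nearest in length, and S100A4, S100A6, S100A13 and S100A14 are the only members right of their tick.

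Called and uncalled S100 genes lay in short runs along the chromosome 1 cluster. On build GRCh37 the cluster spans 1649125 bases, from S100A10 (151955391 to 151966335) to S100A1, which ends at 153604515. S100A6 (153507075 to 153508720), S100A5 (153509623 to 153514241) and S100A4 (153516089 to 153522612) are next to each other on the minus strand, and all rose. In this annotation S100A3 (153519805 to 153521734) lies within the span of S100A4, shares no exon base with it, and was not called. The RefSeq start of S100A4 used for the window above lies downstream of the S100A3 start, so the annotations differ there. S100A4 had 6.44 and 7.38 times the FPKM of S100A3 in PC9 and 47.3 and 62.8 times in PC9OR. Further along, S100A2 (log2 0.21) and S100A16 (0.27) were not called, and the next genes S100A14 and S100A13 were higher. On the other side S100A9 and S100A8 were lower.

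S100A5, a calcium-, copper- and zinc-binding S100, is not among the 10 members but sits between S100A6 and S100A4. It had 1.26 and 0.73 FPKM in PC9 and 5.22 and 5.34 FPKM in PC9OR, a log2 fold change of 2.42 ± 0.37 (SE; edgeR adjusted p = 0.0116). S100A8 and S100A9 form calprotectin, the antimicrobial complex best known from neutrophils. S100A9 had 496 and 767 FPKM in PC9 and 319 and 362 FPKM in PC9OR, a log2 fold change of -0.90 ± 0.24 (SE; edgeR adjusted p = 0.0390). S100A8 had 7.43 and 10.7 FPKM in PC9 and 1.56 and 1.5 FPKM in PC9OR, a log2 fold change of -2.65 ± 0.35 (SE; edgeR adjusted p = 0.00918). All 3 calls held with length offsets, at log2 values of 1.88, -1.46 and -3.28. S100A12 had between 5 and 13 counts in a library, S100A7 a single count in PC9 replicate 1, S100A7A a single count in PC9OR replicate 1 and S100A1 3 counts in PC9OR replicate 2, and none of these was tested. In the whole family, 17 of 21 genes had a count and 13 were tested, of which 5 were higher and 2 were lower. Of all tested genes 15.6% were higher and 20.8% were lower, and of those in the members' length range 26.2% were higher.

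**Figure D3:**
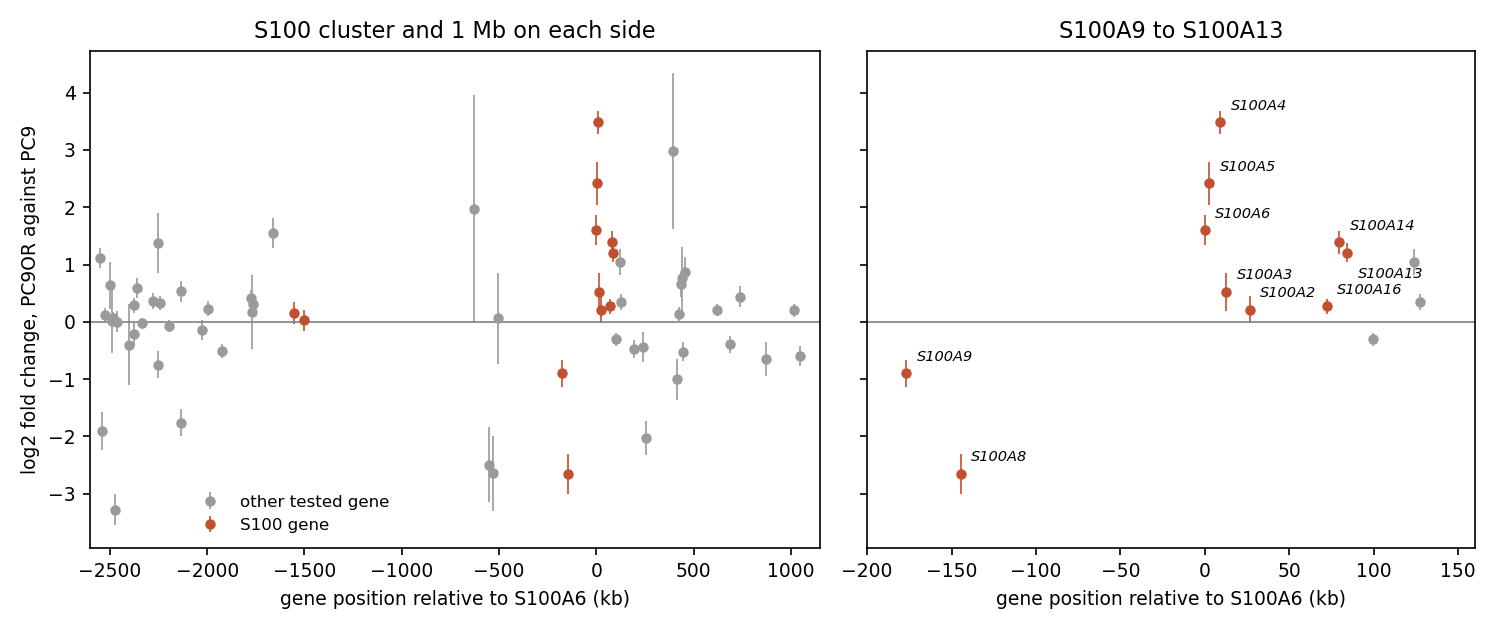
Log2 fold change (points, ± SE) of tested genes by position relative to S100A6, in kb between the lower-coordinate ends of the genes, over the S100 cluster with 1 Mb on each side (left) and from S100A9 to S100A13 (right). S100A6, S100A5 and S100A4 lie at 1.60, 2.42 and 3.48, while S100A3 and S100A2 beside them are at 0.52 and 0.21.

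Genes on both sides of the cluster were read in the same way. Within 1 Mb before it, 27 genes were tested, 2 were higher and 4 were lower, with a median log2 fold change of 0.12. Within 1 Mb after it, 19 were tested, 1 was higher and 1 was lower, with a median of 0.14. Together 3 of 46 were higher and 5 of 46 lower, beside 15.6% and 20.8% of all tested genes. The nearest tested genes before the cluster were THEM4 (1.55, edgeR adjusted p = 0.0147), TDRKH (0.32) and OAZ3 (0.17), and those after it were CHTOP (-0.31), SNAPIN (1.04, edgeR adjusted p = 0.0252) and ILF2 (0.34). Among called genes, the largest changes past 2-fold were MLLT11 (-3.28), GATAD2B (-2.02), MINDY1 (-1.91) and POGZ (-1.76), and inside the cluster SPRR3 (-2.64) and SPRR1A (-2.50), which had at most 18 counts in a library.

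The family took up 0.520% and 0.623% of all FPKM in PC9 and 0.768% and 0.835% in PC9OR. S100A6 made up 31.2% and 36.9% of the family's FPKM in PC9 and 59.4% and 61.3% in PC9OR. S100A9 made up 31.0% and 34.5% in PC9, close to S100A6, and 10.1% and 10.6% in PC9OR. S100A4 went from 0.656% and 0.620% to 4.01% and 4.29%. These shares are on the FPKM scale with no length offsets.

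**Figure D4:**
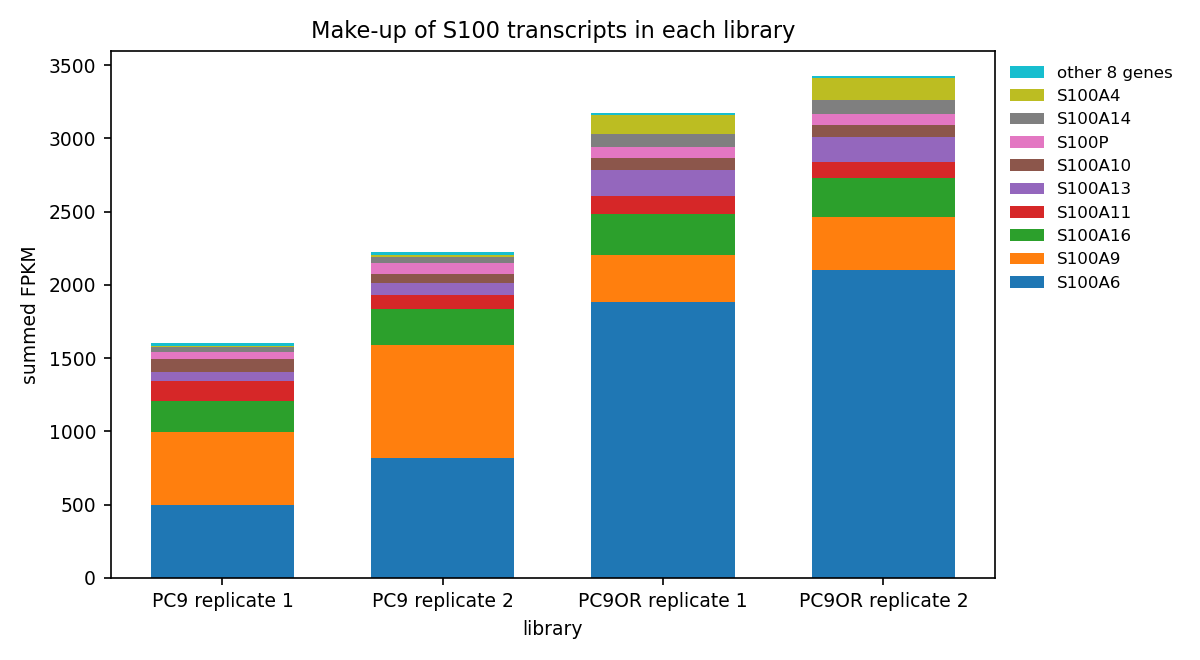
Summed FPKM of the S100 family in each library, stacked by gene from 0. S100A6 (blue) grows from 499 and 821 FPKM in PC9 to 1885 and 2101 FPKM in PC9OR, while S100A9 (orange) shrinks from 496 and 767 to 319 and 362 FPKM.

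Of 22 listed partners and receptors of S100 proteins, 20 were tested, 4 were higher and 5 were lower, with a median log2 fold change of -0.02. These counts are near the 15.6% higher and 20.8% lower of all tested genes. ANXA2, the partner of S100A10, did not pass the test (0.03 ± 0.16 SE; edgeR adjusted p = 0.885), with 218 and 279 FPKM in PC9 and 257 and 244 FPKM in PC9OR. S100A10 had 0.415 and 0.225 times the FPKM of ANXA2 in PC9 and 0.323 and 0.351 times in PC9OR, so the PC9OR ratios lay between the PC9 ratios. ANXA1, a partner of S100A11, fell by 0.86 on the log2 scale (edgeR adjusted p = 0.0109), whereas ANXA5 rose by 0.83. CACYBP, the partner of S100A6, rose by 0.88 (edgeR adjusted p = 0.0198). The FPKM ratio of S100A6 to CACYBP was 13.9 and 17.1 in PC9 and 25.3 and 27.4 in PC9OR. These ratios have no length offsets, and S100A6 is much the shorter gene. With length offsets S100A6 rose by 1.11 and CACYBP by 0.95 on the log2 scale. EZR, the ezrin bound by S100P, rose by 0.42, and S100PBP, which binds S100P in the nucleus, fell by 0.81.

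IL1A, a cargo of S100A13, had 24.7 and 32.7 FPKM in PC9 and 1.55 and 1.53 FPKM in PC9OR. It fell by 4.19 on the log2 scale (edgeR adjusted p = 0.00249), while S100A13 rose. FGF1, the other cargo and named after its values were seen, was at most at 0.27 FPKM and did not pass the test (0.63 ± 1.32 SE; edgeR adjusted p = 0.727). PPFIBP1, a liprin bound by S100A4, fell by 1.39 (edgeR adjusted p = 0.0052). MYH9, a non-muscle myosin heavy chain named after its values were seen, did not pass the test (-0.43 ± 0.20 SE; edgeR adjusted p = 0.151). With length offsets MYH9 had a value of 0.12 (edgeR adjusted p = 0.467). AHNAK, a very large protein bound by S100A10 with ANXA2, fell by 1.01 (edgeR adjusted p = 0.0347) without length offsets, but had a value of 0.14 (edgeR adjusted p = 0.393) with them. TRPV6, a calcium channel that S100A10 helps to the membrane, had 6 and 21 counts in PC9 and 115 and 89 in PC9OR, a log2 fold change of 2.66 ± 0.56 (SE). The receptors did not pass the test, with AGER at 0.55 (edgeR adjusted p = 0.321) and under 1 FPKM in every library, and TLR4 at 0.29 (edgeR adjusted p = 0.103). With length offsets TLR4 was called higher, at 0.64 (edgeR adjusted p = 0.0205), and BSG, a receptor of S100A9 named after its values were seen, was called lower, at -0.48 (edgeR adjusted p = 0.0331).

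Of 13 annexins, 11 were tested, 3 were higher and 2 were lower (15.6% and 20.8% of all tested genes), with a median log2 fold change of 0.17. Besides ANXA1 and ANXA5, ANXA4 rose by 1.10, ANXA9 rose by 1.11 and ANXA8 fell by 1.47. Of 28 other EF-hand genes, 23 were tested, 11 were higher and 3 were lower, beside 15.6% and 20.8% of all tested genes, with a median of 0.64. With length offsets 10 were higher and 4 were lower, beside 20.0% and 18.4% of all tested genes, with a median of 0.38. EFHD1, with 6 and 2 counts in PC9 and 113 and 99 in PC9OR, had the largest change of these lists, at 4.36 ± 0.61 (SE). CETN2 and CETN3, centrins of the centrosome, rose by 2.17 and 0.90, CAPS (calcyphosine) by 1.89, the calmodulin gene CALM2 by 0.96, and the myosin light chain gene MYL12A by 0.88. PEF1, CALML4 and EFHD2 fell by 1.53, 1.17 and 1.10.

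**Figure D5:**
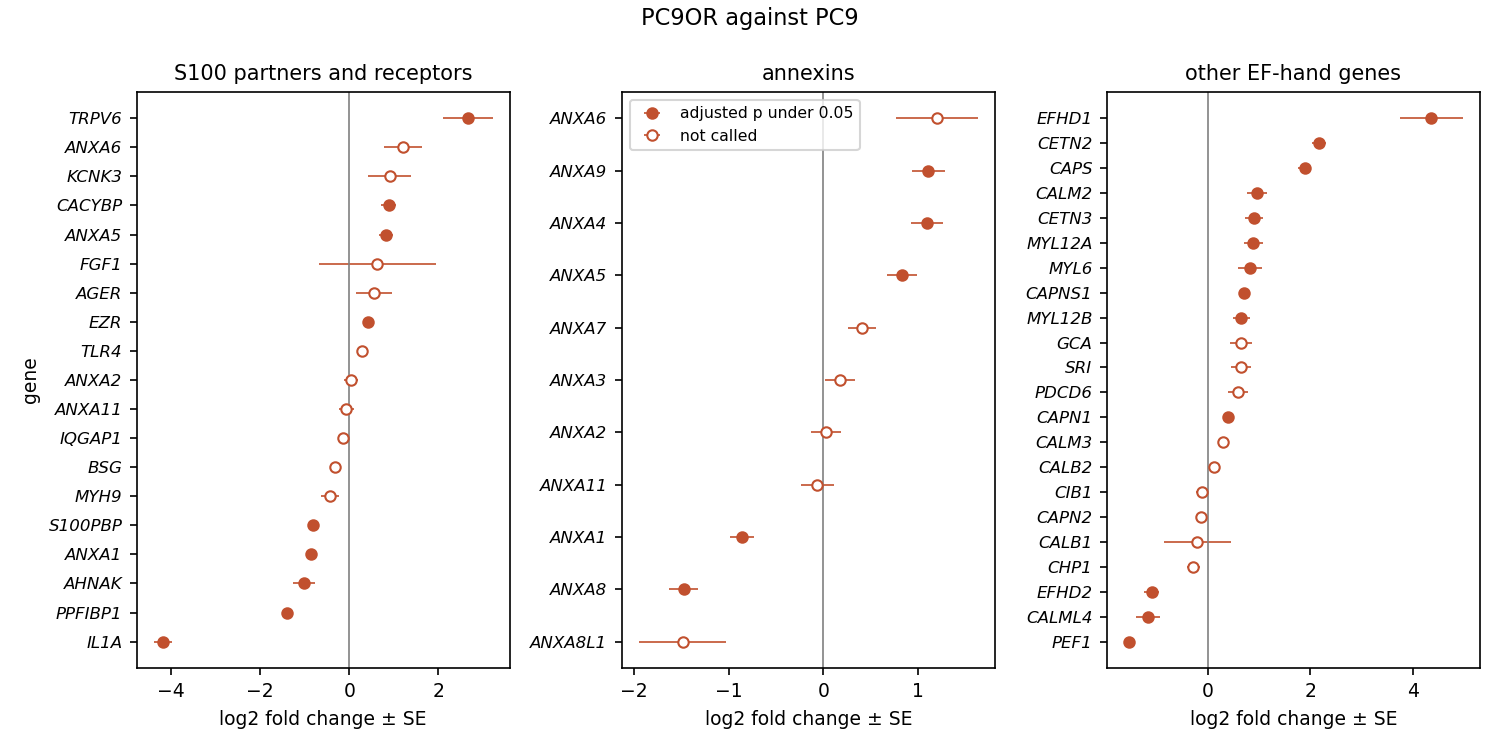
Log2 fold change (± SE) in PC9OR against PC9 of tested genes from the lists of S100 partners and receptors, annexins and other EF-hand genes, with filled points for an adjusted p under 0.05. IL1A lies at -4.19 and EFHD1 at 4.36, and ANXA2 lies at 0.03.

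Markers of other cell types were also read beside the S100 values. Of the squamous markers, which S100A2, S100A8 and S100A9 often accompany in keratinocytes, the summed level was 17.7 and 14.9 FPKM in PC9 and 1.98 and 3.05 FPKM in PC9OR. KRT5 gave nearly all of it in PC9 and fell by 3.75 on the log2 scale. Of the 5 squamous genes 2, KRT5 and TP63, were lower and none higher, beside 20.8% of all tested genes lower. IVL (1.97), KRT14 (0.68) and SPRR1B (0.06) had values above 0 but were not called, with at most 69 counts in a library. With length offsets TP63 was not called (edgeR adjusted p = 0.0648). The 9 epithelial markers summed to 2576 and 2987 FPKM in PC9 and 5720 and 5511 FPKM in PC9OR, with KRT7, KRT8, KRT18 and KRT19 higher and CDH1 lower. Leukocyte markers summed to 6.74 and 5.34 FPKM in PC9 and 2.82 and 2.51 FPKM in PC9OR. Nearly all of it was CD68, a gene that many cell types express, which fell by 1.10 on the log2 scale (edgeR adjusted p = 0.0158). CD14, with at most 18 counts in a library, had a value of -2.64 and was not called (edgeR adjusted p = 0.0600). With length offsets CD14 was called lower, at -2.83 (edgeR adjusted p = 0.0486). The defining leukocyte marker PTPRC was at most at 0.02 FPKM, a value that touches S100A8 and S100A9, which leukocytes also express. Fibroblasts express S100A4, and their markers summed to at most 0.25 FPKM in a library. Endothelial markers summed to 6.47 and 4.10 FPKM in PC9 and 0.86 and 0.88 FPKM in PC9OR, mostly CDH5. The part of the keratin changes in the S100 results was not tested.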

How the data were processed

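Libraries were made with a stranded TruSeq kit and sequenced at 100 bases per the study's methods, and the submitters' processing notes name Bowtie2 2.2.5, RSEM 1.2.12 and GRCh37. The authors deposited 3 values per Entrez gene and library, namely an expected count (an estimated count, not normalized), an FPKM value and a transcript length. Genes not listed were set to 0. Whether counting used strand is not given in the sources used here. Symbols were found for 99.655% of genes, and positions came from the GRCh37 annotation.

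Expected counts were rounded and analysed by the quasi-likelihood functions of edgeR 4.0.16 under R 4.3.3, after TMM scaling and the filterByExpr filter, which left 13148 genes, with Benjamini-Hochberg adjustment over all of them. SEs came from the quasi-likelihood F statistic. The length offsets are a smooth curve of log count on transcript length for each library (mgcv 1.9.3). Scripts were tested on simulated data. Single values of 2 listed genes are not reported or drawn here. The 10 members and the gene lists (partners and receptors, annexins, other EF-hand genes, cell type markers) were chosen with earlier results of these data known. The text names all members, other S100 genes with a count, called genes of the lists (at most the 10 largest of each) with ANXA2, ANXA1, AHNAK, CACYBP, AGER and TLR4, and the nearest 3 and the largest 6 neighbours of the cluster. Alternatives were DESeq2 1.42.0, limma 3.58.1 on log2(FPKM + 1) and log2(FPKM + 0.1), library totals, DESeq2 size factors, filters on low counts, each library left out, the replicate number as a block, and an MA-plot-based model on pooled replicates written after DEGseq, which the study names. Intervals and floors cover counting error and the spread between these libraries only. Identical stretches of at least 50 bases were sought with BLAST 2.17.0+ in the annotation used for positions, which may differ from the reference behind the counts. There 10.83% of the S100A11 transcript is shared with a processed pseudogene. The expected counts of S100A11 were whole in all 4 libraries, and how far this sharing affects them is not known.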

Additional observations from a re-analysis of the deposited data

How the results depend on the processing

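S100A4, S100A6, S100A13 and S100A14 were called higher under all 15 alternative fits, with log2 fold changes of 2.86 to 3.69, 1.11 to 1.99, 0.65 to 1.42 and 1.06 to 1.67. The count of members called higher was 4, and it was 8 with the MA-plot-based model, which ignores the spread between replicates, and 4 to 6 with 1 library left out. S100A16 (0.37) and S100P (0.59) were called without PC9 replicate 2, and S100A10 (0.43, edgeR adjusted p = 0.0123) without PC9 replicate 1. At more than 2-fold and an adjusted p under 0.001, the threshold the study states, edgeR called 0 members and 0 genes in either direction, with a smallest adjusted p of 0.00155. The unadjusted p was under 0.05 for 4 members and for 3137 higher and 3516 lower genes, DESeq2's Wald test called 4 members, 502 higher and 1227 lower genes at that threshold, and edgeR with length offsets called 1 member, S100A4.

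Values below 0 replaced values above 0 with the length offsets for S100A2 (-0.17), S100A10 (-0.22), S100A11 (-0.61), S100A16 (-0.024) and S100P (-0.33). Without 1 library, S100A10 ran from -0.090 to 0.43 and S100A11 from -0.20 to 0.25. Same-numbered libraries deviated together with a correlation of 0.06 across genes, so the numbers were not taken as pairs. The replicate block kept 4 members higher and 0 lower. The replicate block with length offsets gave -0.17, -0.17, -0.55, -0.024 and -0.33 for the same 5 genes and called 1 member lower, S100A11 (edgeR adjusted p = 0.0187).

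Over all tested genes, 2056 were higher and 2734 lower. The MA-plot-based model called 5763 and 5706, the replicate block with length offsets 3138 higher, and a 2-fold limit left 806 and 1523. With 1 library left out the counts ran from 525 to 3932 higher and from 1177 to 3929 lower. They were 525 and 1177 without PC9OR replicate 1, 527 and 1191 without PC9OR replicate 2, and 3932 and 3929 without PC9 replicate 2. In these fits the lone library is assumed to vary like the others. The cause of these shifts was not tested.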
